A study of Oryctolagus cuniculus with 9 samples.

Results

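The genes described here were 8 transcripts of the hypoxia response, selected by symbol from the 14870 genes of the deposited tables: CA9, CA12, ADM, STC2, ERO1A, BNIP3, KDM3A and ANKRD37. RNA from rabbit knee cartilage was sequenced 12 weeks after surgery in 9 libraries, 3 in each of 3 groups. The animals were New Zealand rabbits aged 4 to 5 months at selection. Defects of critical size were made in the trochlear groove and either received no material (untreated) or a CLCS scaffold, a porous collagen sponge carrying chondroitin sulfate (CLCS). Per the study's methods the right knee held the scaffold and the left defect stayed empty. A scheme of the study shows the healthy samples taken from the condyle, so the site of sampling and the defect cannot be told apart in a comparison with healthy cartilage. The labels do not tie a library to an animal, so the p-values measure the spread between these samples.

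Cartilage has no blood vessels, and chondrocytes live at low oxygen throughout adult life. When oxygen falls, the prolyl hydroxylases stop marking HIF-1 alpha and HIF-2 alpha for VHL-dependent degradation, and the stabilised subunits pair with ARNT to activate target genes. Among these targets, CA9 and CA12 regulate pH at the cell surface, ADM and STC2 encode secreted peptides and glycoproteins, ERO1A drives disulfide bond formation in the endoplasmic reticulum, BNIP3 directs mitochondria to autophagy, KDM3A removes methyl groups from lysine 9 of histone H3, and ANKRD37 encodes an ankyrin repeat protein.

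The tables held 724986 to 1226408 reads per library, of which the 8 genes took 787 to 1281. A single gene without a symbol took 1.49% (untreated replicate 3) to 49.4% (CLCS replicate 3) of the reads. Levels are given as normalized reads, meaning reads divided by the authors' size factor of the library, which makes libraries comparable for a gene but does not correct for gene length, so levels are compared within a gene only. The chondrocyte genes COL2A1 (type II collagen) and ACAN (aggrecan) had reads in all 9 libraries. The cartilage matrix gene MATN1 had 0 to 2 reads in healthy libraries and 0 in the others. Untreated replicate 3 had 458 normalized reads of COL2A1, against 4062 and 8816 in the other untreated libraries, and CLCS replicate 3 had 25534, against 8971 and 9082.

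Expression of CA9, STC2 and ADM was lower in untreated defects than in healthy cartilage, and CA9 was also lower with the CLCS scaffold. With CLCS, STC2 and ADM also lay below all healthy libraries but did not pass the test. The other 5 genes passed the test in neither comparison with healthy cartilage. No gene passed it between CLCS and untreated defects. In untreated against healthy samples 3 of the 8 genes were called, where a call is an adjusted p under 0.05 in limma over the 3496 genes tested, while 2.55% of all genes tested were called (1.2% with lower expression, as for these 3). In CLCS against healthy samples 1 of the 8 was called, against 3.16% of the 3294 genes tested (1.03% with lower expression). CA9 passed the filter on low counts through its healthy libraries alone, and ADM through these and 1 CLCS library, so for both genes a difference from healthy cartilage was a condition of being tested. The same healthy libraries serve both comparisons, which are therefore not independent of each other.

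**Figure D1:**
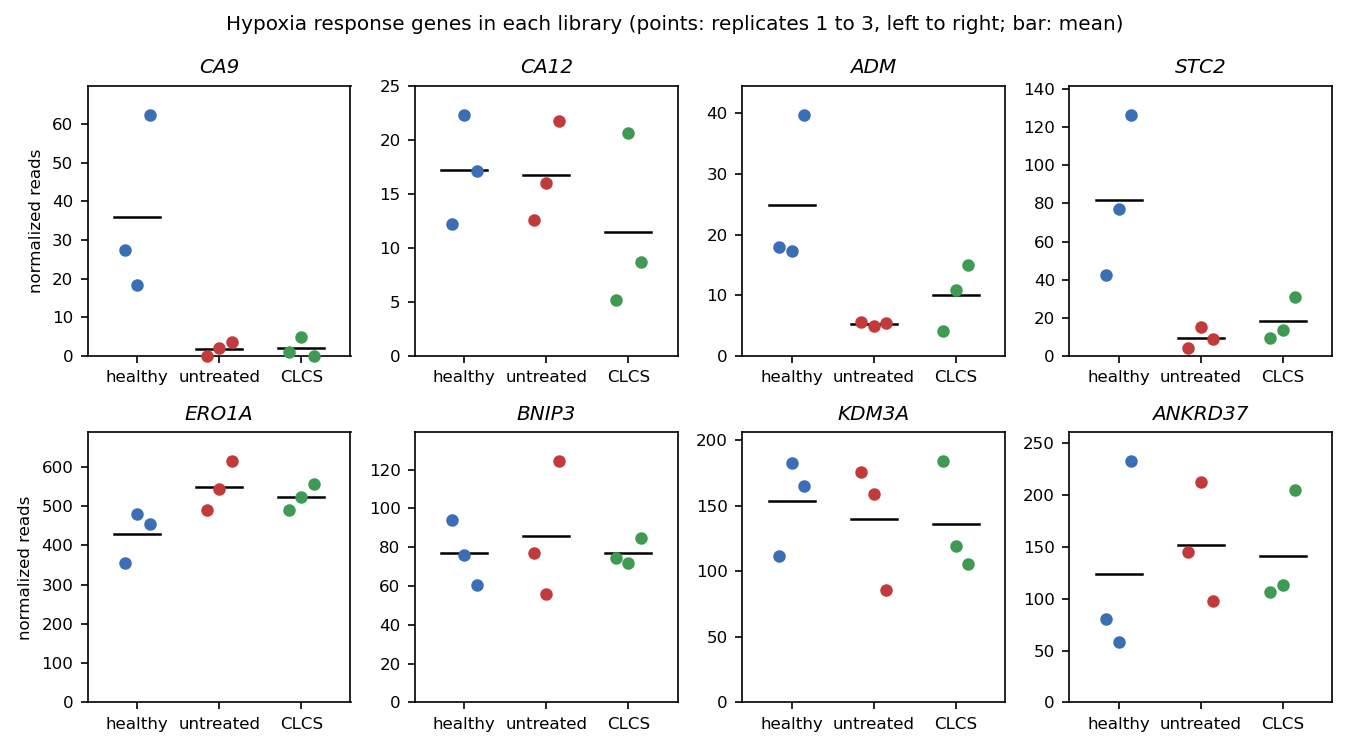
Normalized reads (vertical axes, linear and starting at 0) of the 8 genes in each of the 9 libraries; points stand for replicates 1 to 3 from left to right within a group and bars for the group mean. The healthy points of CA9 (18.3 to 62.3), ADM (17.3 to 39.8) and STC2 (42.4 to 126) lay above all points from both defect groups.

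CA9, the membrane-bound carbonic anhydrase IX, converts carbon dioxide to bicarbonate and protons outside the cell and is a widely used readout of HIF-1 activity. It had 27.3, 18.3 and 62.3 normalized reads in the healthy libraries, 0, 2.0 and 3.63 in the untreated and 1.03, 4.92 and 0 in the CLCS libraries. Every healthy library was above every library from a defect, and 1 library of each defect group held no CA9 read. The means were 36.0 ± 23.3 (SD, n = 3), 1.88 ± 1.82 and 1.98 ± 2.59. The log2 fold change was -3.76 (SE 0.67, 95% confidence interval -5.32 to -2.20) in untreated samples, with an adjusted p of 0.0346 in limma. With CLCS it was -3.83 (SE 0.70, -5.46 to -2.20), with an adjusted p of 0.0375 in limma.

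These fold changes are on the scale of log2(value + 1), which understates the change of a gene with few reads. Summed over libraries, CA9 had 116 reads in the healthy group and 6 in each defect group. Divided by the summed size factors of each group, it was 20.7-fold lower (exact 95% counting interval 9.22 to 57.5) in untreated samples. In CLCS samples it was 17.1-fold lower (7.62 to 47.5). All ratios of summed reads given here were divided in this way. The intervals cover counting error only, as do all intervals on ratios of reads given here. In the reference annotation CA9 lies 789 bases from TPM2, which encodes a tropomyosin. TPM2 had 65.0 ± 39.1 normalized reads in the healthy, 25.8 ± 13.9 in untreated and 19.6 ± 4.69 in CLCS samples, with log2 fold changes of -1.22 (limma, adjusted p = 0.361) and -1.50 (adjusted p = 0.172). Whether reads of one gene were counted for the other was not tested.

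CA12 encodes carbonic anhydrase XII, a second membrane-bound enzyme of the family. It had 12.2, 22.3 and 17.2 normalized reads in the healthy, 12.6, 16.0 and 21.8 in untreated and 5.17, 20.7 and 8.72 in CLCS libraries. The untreated libraries fell within the healthy range, and 2 of the 3 CLCS libraries lay below all healthy ones. The log2 fold changes were -0.03 (SE 0.35) and -0.70 (SE 0.49), with adjusted p values of 0.982 and 0.511 in limma. These differences were smaller than the spread between replicates, and the 5 to 24 reads behind each library leave wide intervals.

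STC2 encodes stanniocalcin 2, a secreted glycoprotein induced by hypoxia and by stress of the endoplasmic reticulum. Its healthy libraries had 42.4, 77.1 and 126 normalized reads, the untreated 3.94, 15 and 9.07, and the CLCS libraries 9.30, 13.8 and 31.1. The highest library from a defect, CLCS replicate 3, remained below the lowest healthy one. The group means were 82.0 ± 42.3, 9.34 ± 5.54 and 18.1 ± 11.5. In untreated samples the log2 fold change was -3.03 (SE 0.56, -4.33 to -1.72), with an adjusted p of 0.0397 in limma, and the summed reads were 9.30-fold lower (6.36 to 14.1; 30 against 261 reads). With CLCS the log2 fold change was -2.16 (SE 0.54, -3.41 to -0.90) and missed the threshold, with an adjusted p of 0.0850 in limma. With the replicate number as a block, its adjusted p was 0.0170 in limma. That the CLCS and healthy replicate numbers pair was taken from correlations of 0.14 to 0.28. The labels do not state it, and the fit without the block remains the main one. The summed reads were 4.81-fold lower (3.52 to 6.68; 48 against 261 reads).

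ADM encodes adrenomedullin, a peptide hormone that dilates vessels and acts through the receptor CALCRL together with RAMP proteins. It had 17.9, 17.3 and 39.8 normalized reads in the healthy, 5.51, 5.0 and 5.44 in untreated and 4.13, 10.8 and 14.9 in CLCS libraries. The untreated libraries were close to each other, with 5 to 7 reads each, whereas the CLCS libraries spread from below them to near the lowest healthy library. The log2 fold change in untreated samples was -1.93 (SE 0.38, -2.82 to -1.04), with an adjusted p of 0.0490 in limma, close to the threshold. In CLCS samples it was -1.29 (SE 0.51, -2.48 to -0.10), with an adjusted p of 0.254 in limma. The summed reads were 4.75-fold lower (2.82 to 8.42; 18 against 80 reads) in untreated and 2.62-fold lower (1.67 to 4.21; 27 against 80 reads) in CLCS samples.

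In untreated against healthy samples none of the 3 was called in any of the 6 fits that left out 1 library, with log2 fold changes between -4.23 and -3.13 for CA9, between -3.43 and -2.57 for STC2 and between -2.14 and -1.56 for ADM. Over all genes these fits called 2 to 7, against 89 with 6 libraries. In CLCS against healthy samples CA9 was called in 2 of these 6 fits, without healthy replicate 2 (adjusted p = 0.0468) and without CLCS replicate 2 (adjusted p = 0.0387), and in none of the others.

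ERO1A encodes the oxidase that passes electrons from protein disulfide isomerase to oxygen. It had 355, 481 and 454 normalized reads in healthy libraries, 489, 543 and 614 in untreated and 491, 523 and 555 in CLCS libraries. All 6 libraries from defects lay above the 3 healthy ones, although the gap between healthy replicate 2 and untreated replicate 1 was small. The means were 430 ± 66.2, 549 ± 62.5 and 523 ± 32.2. The log2 fold changes of 0.36 (SE 0.28, -0.30 to 1.02) and 0.29 (SE 0.27, -0.33 to 0.91) did not pass the test, with adjusted p values of 0.613 and 0.630 in limma. The groups of ERO1A, CA9, STC2 and ADM did not overlap in either comparison with healthy samples, 4 of 8 genes. Over all genes tested the share was 22% for the untreated and 24.2% for the CLCS group. CA9 passed the filter on low counts through its healthy libraries alone, as did ADM against untreated samples. There the lack of overlap was tied to being tested, so the 4 of 8 cannot be read against these shares.

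BNIP3 encodes a protein of the outer mitochondrial membrane that recruits the autophagy machinery. Its levels were 94.2, 76.1 and 60.5 normalized reads in the healthy, 77.2, 56.0 and 124 in untreated and 74.4, 71.8 and 84.7 in CLCS libraries. Untreated replicates 2 and 3 were the lowest and the highest of the 9 libraries. The means were 77.0 ± 16.9, 85.8 ± 34.9 and 77.0 ± 6.79, and the log2 fold changes 0.10 (SE 0.38) and 0.02 (SE 0.28) with adjusted p values of 0.942 and 0.980 in limma. The signs of both depended on single libraries.

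KDM3A encodes a JmjC-domain demethylase that itself needs oxygen for catalysis. It had 112, 183 and 165 normalized reads in the healthy, 176, 159 and 86.1 in untreated and 184, 119 and 106 in CLCS libraries. The 3 ranges overlapped over most of their width. The log2 fold changes were -0.16 (SE 0.38) and -0.18 (SE 0.34), with adjusted p values of 0.901 and 0.833 in limma.

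ANKRD37 is a HIF-1 target whose protein is made of ankyrin repeats. It had 80.1, 57.8 and 232 normalized reads in healthy libraries, 145, 212 and 97.9 in untreated and 106, 113 and 204 in CLCS libraries. Healthy replicate 3 was the highest of the 9 libraries and healthy replicates 1 and 2 were the lowest, and its healthy range was 4.01-fold wide. The log2 fold changes of 0.49 (SE 0.56) and 0.39 (SE 0.54) had adjusted p values of 0.771 and 0.764 in limma. ANKRD37 overlaps UFSP2 and LRP2BP in the reference annotation, so that without strand information part of its reads may belong to them. UFSP2 had 71.0 ± 27.4, 55.2 ± 30.9 and 63.2 ± 41.0 normalized reads in the healthy, untreated and CLCS samples, and LRP2BP had 1 to 10 reads per library.

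**Figure D2:**
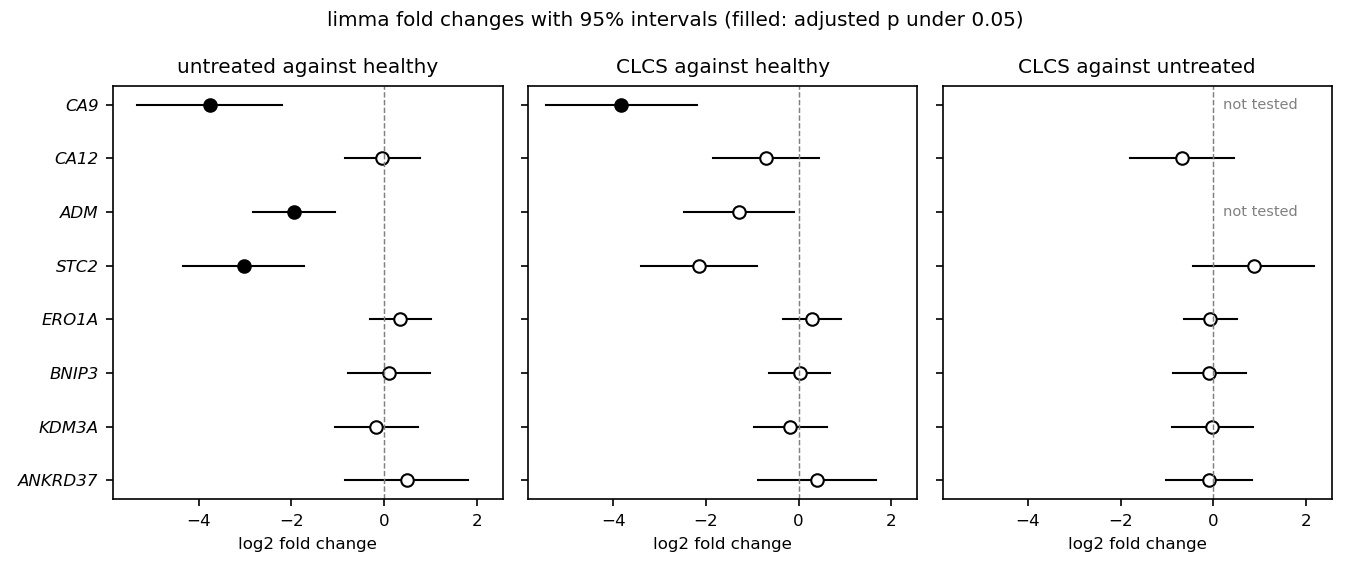
Log2 fold changes from limma (horizontal axis) with 95% confidence intervals for the 8 genes in 3 comparisons; filled points had an adjusted p under 0.05. CA9 (-3.76), ADM (-1.93) and STC2 (-3.03) were filled in untreated against healthy samples, CA9 (-3.83) alone in CLCS against healthy samples, and none in CLCS against untreated samples.

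Over the 8 genes the median log2 fold change was -0.10 for the untreated and -0.44 for the CLCS group against healthy samples, and over all genes tested it was -0.02 and -0.08. In each comparison 5 of the 8 genes had a log2 fold change below 0.

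The comparison of CLCS with untreated defects asks whether the scaffold altered the expression of these genes in the repair tissue. None of the 6 genes tested was called, and neither was any of the 3275 genes (0%). With edgeR and with DESeq2 the number of called genes was 0 as well, and 95 genes in limma, 88 in edgeR and 76 in DESeq2 had an unadjusted p under 0.05, and no member of the 6 was among the 95 (2.9% of genes tested). Blocking by replicate number in limma also gave 0 called genes, while 164 rather than 95 passed the unadjusted threshold. The values of single genes given for CLCS against untreated samples come from fits without this block. Their intervals therefore make no use of any pairing by replicate number, which the labels do not state. STC2 had a log2 fold change of 0.87 (SE 0.56, -0.43 to 2.18), with an adjusted p of 0.996 in limma. Its summed reads were 48 in CLCS and 30 in untreated samples. Divided by the summed size factors, this was a ratio of 1.94 (1.2 to 3.16). The 3 CLCS values of STC2 overlapped with the untreated ones. For CA12 the log2 fold change was -0.67 (-1.80 to 0.45), for ANKRD37 -0.10 (-1.02 to 0.83), for BNIP3 -0.08 (-0.88 to 0.71), for ERO1A -0.07 (-0.64 to 0.51) and for KDM3A -0.02 (-0.89 to 0.86), and the groups overlapped for each, while they did not overlap for 8.34% of genes tested. CA9 and ADM had too few reads in the defects to be tested here. In the fit over all 9 libraries their log2 fold changes between CLCS and untreated samples were -0.07 (-1.79 to 1.65) for CA9 and 0.65 (-0.40 to 1.69) for ADM. These intervals do not show that the genes were equally expressed in the 2 kinds of defect. They leave room for differences of more than 1 log2 unit in STC2, CA9, ADM, CA12 and ANKRD37.

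With both defect groups set against healthy cartilage in 1 fit of the 9 libraries, CA9, STC2 and ADM were called, 3 of the 8 genes. Of the 3812 genes tested 6.58% were called (2.49% with lower expression). CA9 and ADM had too few reads in the defects to pass the filter on low counts without their healthy libraries. For both, a difference from healthy cartilage was thus a condition of being tested. The log2 fold changes were -3.79 (SE 0.66; limma, adjusted p = 0.0122) for CA9, -2.59 (SE 0.51; adjusted p = 0.0187) for STC2 and -1.61 (SE 0.40; adjusted p = 0.0460) for ADM. By the study's methods the scaffold and the empty defect lay in the 2 knees of the same rabbits. This fit treats the 6 libraries from defects as independent samples, so its p-values may be too small. CA9 lost its call without healthy replicate 3 (adjusted p = 0.0618), and STC2 without healthy replicate 2 (adjusted p = 0.0559) or 3 (adjusted p = 0.0848). ADM kept its call only without CLCS replicate 3 (adjusted p = 0.0397), and its adjusted p in the other 8 fits that left out 1 library ran up to 0.166. The log2 fold changes of the other 5 genes lay between -0.37 (CA12) and 0.44 (ANKRD37). ERO1A, with a log2 fold change of 0.32 and an adjusted p of 0.455 in limma, was above all healthy libraries in 6 of 6 libraries from defects. With CA9, STC2 and ADM this made 4 of 8 genes without overlap, against 13.5% of genes tested. The filter on low counts bears on this count as well, through CA9 and ADM.

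**Figure D3:**
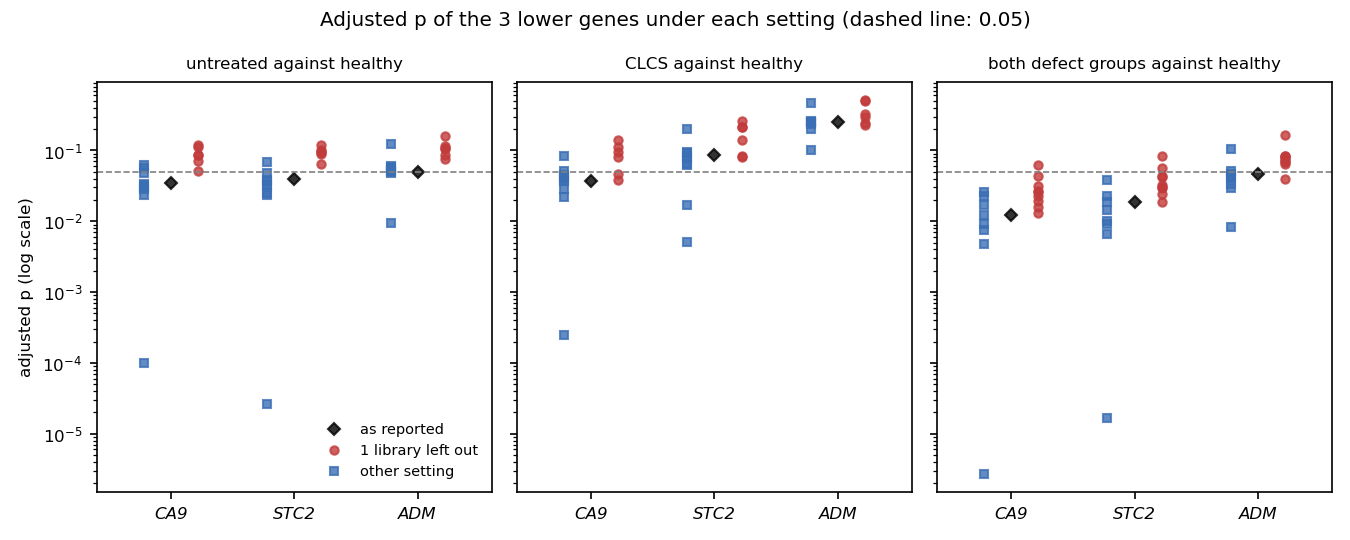
Adjusted p (vertical axis, log scale) of CA9, STC2 and ADM in 3 comparisons with healthy samples under the fit as reported (diamonds), with 1 library left out (circles) and under the other settings (squares); the dashed line marks 0.05. In untreated against healthy samples every circle lay above the line, and with both defect groups CA9 had 8 of 9 circles below it.

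Within the healthy group, replicate 3 had the highest level of 4 of the 8 genes, CA9, ADM, STC2 and ANKRD37, and the highest of the first 3 of these was 2.30 to 3.41 times the lowest. CA12, ERO1A and KDM3A were highest in healthy replicate 2 and BNIP3 in replicate 1. Among CLCS libraries replicate 3 was highest for 5 genes and replicate 1 lowest for 5.

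Across the 9 libraries CA9, ADM and STC2 followed each other, with Pearson correlations of log2(value + 1) of 0.75 between CA9 and ADM, 0.80 between CA9 and STC2 and 0.91 between ADM and STC2. These values are descriptions, since the libraries share the contrast between healthy cartilage and defects. Among the other 5 genes the correlation ran from -0.73 (BNIP3 with KDM3A) to 0.28 (ANKRD37 with ERO1A). The 5 genes whose pattern over the 9 libraries was most like that of CA9, among 3812, were ZNF277 (0.95), ENSOCUG00000015892 (0.94), ENSOCUG00000009154 (0.93), UVRAG (0.93) and NEU2 (0.93). UVRAG had 12 to 32 reads in healthy libraries, 0 to 1 in untreated and 0 in CLCS libraries. The 5 most like BNIP3 were ENSOCUG00000021825 (0.96), ENSOCUG00000001280 (0.94), ENSOCUG00000003298 (0.94), DRAP1 (0.92) and FSTL1 (0.91).

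The oxygen sensors and HIF subunits that act above the 8 genes were measured sparsely. Of 13 such genes 8 were in the tables and 4 were tested, and none was called in any comparison by the main test. HIF1A, the oxygen-regulated subunit of HIF-1, had 194, 52.8 and 187 normalized reads in the healthy, 31.5, 8.0 and 42.6 in untreated and 21.7, 19.7 and 52.3 in CLCS libraries. All libraries from defects were below all healthy ones, by as little as 52.3 against 52.8. Its log2 fold changes were -2.42 (SE 0.73; limma, adjusted p = 0.148) for the untreated group, -2.10 (SE 0.60; adjusted p = 0.120) for CLCS and -2.26 (adjusted p = 0.0624) for both defect groups. With the replicate block its adjusted p in limma was 0.0444 with CLCS and 0.0116 for both defect groups. In untreated against healthy samples DESeq2 called HIF1A (adjusted p = 0.0117). Over the alternative settings HIF1A was called in 2 of 15 for the untreated group, 3 of 15 for CLCS and 6 of 17 for both defect groups. EPAS1, which encodes HIF-2 alpha, had log2 fold changes of -0.54 and -0.13, ARNT of -0.19 and -0.27, and the coactivator gene CREBBP of -0.77 and -0.10 in untreated and CLCS samples.

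Among 30 other HIF target genes, 27 were in the tables and 11 were tested in each comparison with healthy samples. In untreated samples 1 fell and 1 rose, 2 of 11 against 2.55% of all genes tested, and in CLCS samples 1 fell, 1 of 11 against 3.16%. PPP1R3C, a subunit of protein phosphatase 1 that promotes glycogen storage, had 50.9, 31.5 and 28 normalized reads in the healthy, 6.30, 3.0 and 1.81 in untreated and 5.17, 8.86 and 8.72 in CLCS libraries. It passed the filter on low counts through its healthy libraries alone, so a difference from healthy cartilage was a condition of being tested, and it was not tested between the defects. Its log2 fold changes were -3.07 (SE 0.44; limma, adjusted p = 0.0251) and -2.12 (SE 0.35; adjusted p = 0.0277). TFRC, the transferrin receptor that imports iron, had 10.4, 11.2 and 8.13 normalized reads in the healthy, 48.1, 44.0 and 24.5 in untreated and 12.4, 10.8 and 22.4 in CLCS libraries. It passed the filter with 3 untreated and 1 healthy library, and was higher in untreated defects, with a log2 fold change of 1.83 (SE 0.35; limma, adjusted p = 0.0461), and had 0.52 (adjusted p = 0.491) with CLCS. All 3 CLCS libraries were below the untreated ones for TFRC, and the log2 fold change of -1.31 between them had an adjusted p of 0.996 in limma.

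In untreated against healthy samples neither was called in any of the 6 fits that left out 1 library, with adjusted p values up to 0.0967 for PPP1R3C and 0.159 for TFRC. In these fits the log2 fold changes were -3.45 to -2.76 for PPP1R3C and 1.65 to 2.12 for TFRC. With CLCS, PPP1R3C was called only without healthy replicate 2. With both defect groups PPP1R3C was called in 9 of 9 such fits, with a log2 fold change of -2.60 (limma, adjusted p = 0.00602) over all libraries.

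The remaining targets named here did not pass the test. ANGPTL4, a secreted inhibitor of lipoprotein lipase, had log2 fold changes of 0.10 and 0.15 in untreated and CLCS samples. The collagen lysyl hydroxylase PLOD2 had -1.26 (limma, adjusted p = 0.368) and -0.82 (adjusted p = 0.335). For LOXL2 and LOX, which crosslink collagen, the values were -0.22 and 0.20, and 0.15 and -0.44. The glucose transporter SLC2A1 had 0.08 and 0.28. The median over the 11 genes was -0.05 in untreated and -0.17 in CLCS samples.

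**Figure D4:**
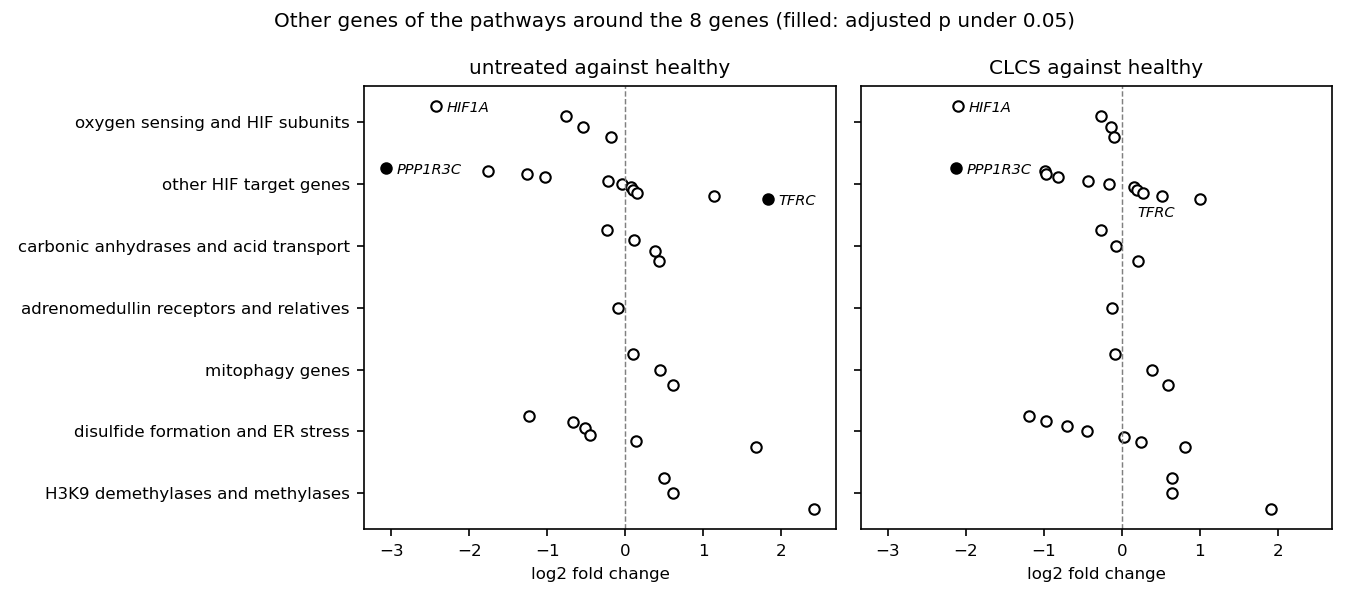
Log2 fold changes (horizontal axis) of the tested genes of 7 lists around the 8 genes in untreated and CLCS against healthy samples, 1 point per gene, spread vertically within a list only to separate the points; filled points had an adjusted p under 0.05. PPP1R3C lay at -3.07 and -2.12, TFRC at 1.83 and 0.52, and HIF1A, not called, at -2.42 and -2.10.

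In the lists that share a function with single genes of the 8, no gene was called in the comparisons with healthy samples or between the defects. Of 20 other carbonic anhydrases and acid transporters 11 were in the tables, and 4 were tested for the untreated and 3 for the CLCS group, with medians of 0.24 and -0.08. Of the 8 receptors and relatives of adrenomedullin only CALCRL was tested, with log2 fold changes of -0.10 and -0.12. For mitophagy 3 of 13 genes were tested, with medians of 0.44 and 0.38. For disulfide formation and stress of the endoplasmic reticulum, 6 and 7 of 20 genes were tested, with medians of -0.49 and -0.45. For the enzymes that add or remove methyl groups at lysine 9 of histone H3, 3 of 11 genes were tested, with medians of 0.62 and 0.65. With 1 to 7 genes tested per list, these medians describe a small share of each pathway.

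Markers of the cell types that such tissue can hold were summed in each library to stand beside CA9, STC2 and ADM. In bulk tissue fewer cells of a type and less RNA per cell cannot be told apart. The summed level of 12 chondrocyte markers present in the tables, of 17 listed, was 8250 to 11137 normalized reads in the healthy, 767 to 10042 in untreated and 10061 to 28124 in CLCS libraries. COL2A1 made up most of this sum. None of the 8 tested chondrocyte markers was called. CYTL1, which encodes a small secreted protein of cartilage, had 138 ± 139 normalized reads in healthy libraries, 22.1 ± 19.4 in untreated and 34.6 ± 4.95 in CLCS libraries, and both defect groups lay below the healthy one (limma, adjusted p = 0.178 and 0.274). HAPLN1, COL11A1 and ACAN lay below all healthy libraries in untreated samples, with log2 fold changes of -0.97, -1.15 and -1.19 (limma, adjusted p = 0.255, 0.169 and 0.278). In CLCS samples they overlapped with the healthy libraries. COL2A1 lay above all healthy libraries in CLCS samples (log2 fold change 0.71). COL9A1 (1.14), COL9A2 (0.35) and COL11A2 (0.07) were also above 0 there. In untreated samples these 4 genes had -1.61, -0.23, -1.67 and -1.38. SOX9, the transcription factor of chondrocytes, had 26.1 ± 19.9, 4.12 ± 0.56 and 7.74 ± 3.54 normalized reads, and healthy replicates spread from 3.61 to 41.6. For 11 of 12 fibroblast markers the sum was 571 to 888 in healthy, 1797 to 5111 in untreated and 2487 to 4121 in CLCS libraries. POSTN, COL1A1 and COL1A2, 3 of 6 tested, were higher in each defect group, against 2.55% and 3.16% of all genes tested. POSTN had 0 to 7 reads in healthy libraries and passed the filter on low counts through the defect libraries alone. For POSTN a difference from healthy cartilage was therefore a condition of being tested. The 8 osteoblast markers summed to 275 to 714, 806 to 2655 and 1711 to 2133. IBSP was called higher in CLCS samples, 1 of 4 tested, against 3.16% of all genes tested. For 7 of 8 osteoclast markers the sums were 5.42 to 34.9, 69.8 to 165 and 43.6 to 172. DCSTAMP was at 0 in healthy libraries and had 1 to 2 reads in those from defects. For 10 of 11 monocyte and macrophage markers the sums were 60.9 to 69.7, 79.6 to 258 and 98.4 to 105. TYROBP was called higher in CLCS samples (1 of 4 tested, against 3.16% of all genes tested). The other markers tested there were AIF1, which lay below all healthy libraries (log2 fold change -0.58), CD68 (-0.14) and ITGAM (0.20). CD163 and MSR1 were at 0 in healthy libraries and had at most 1 read in any library.

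The endothelial markers, 9 of 10 in the tables, summed to 62.3 to 78.1 in healthy, 41.7 to 73.0 in untreated and 53.1 to 70.3 in CLCS libraries. VWF and PECAM1 were at 0 in healthy libraries and had at most 2 and 4 reads in any library from a defect. EMCN was at 0 in both defect groups and had at most 1 read in a healthy library. Muscle markers summed to 24.5 to 53.3, 16.3 to 20.5 and 15.7 to 27.4. ACTA1, MYH1 and MYH4 were at 0 in both defect groups and had at most 1, 4 and 1 reads in a healthy library. The adipocyte sums were 21.3 to 33.4, 30.8 to 33.9 and 35.4 to 46.5, and the erythroid sums at most 9.03. The sums of hypertrophic chondrocyte markers were 150 to 367, 364 to 637 and 350 to 558. MMP13 was called higher in each defect group, 1 of 4 tested, against 2.55% (untreated) and 3.16% (CLCS) of all genes tested. MMP13 had 4 to 5 reads in healthy libraries and passed the filter on low counts through the defect libraries alone. The other markers tested were not called. Their log2 fold changes in untreated and CLCS samples were 2.02 and 1.93 (SPP1), -0.66 and -0.53 (COL10A1), and -0.85 and -0.40 (PTH1R). The part of the cell types in the lower levels of CA9, STC2 and ADM was not tested.

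**Figure D5:**
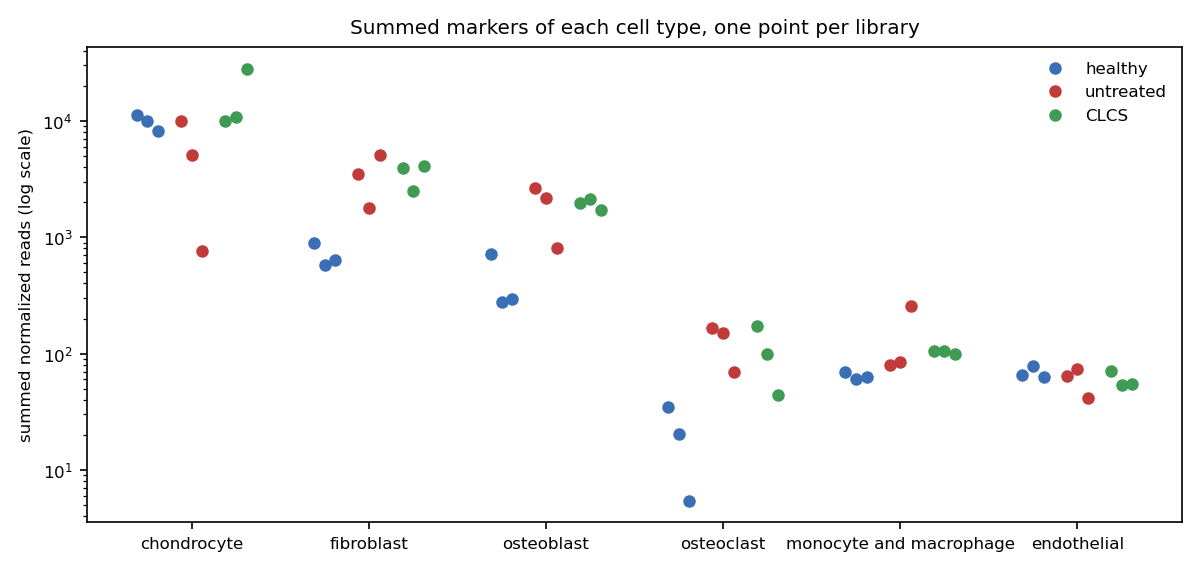
Summed normalized reads (vertical axis, log scale) of the markers of 6 cell types, 1 point per library, colored by group and ordered by replicate within a group. Fibroblast sums were 571 to 888 in healthy and at least 1797 in the libraries from defects, and the chondrocyte sum of untreated replicate 3 (767) stood below all others.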

How the data were processed

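Total RNA was selected for polyA transcripts and sequenced (TruSeq). The authors aligned reads to oryCun2.0 with TopHat and Bowtie, counted unique alignments with eXpress and normalized with DESeq2, per the study's methods and the submitters' processing notes; versions and strand setting are not given in the sources used here. The deposited values are signal values, reads divided by a size factor, for 9 libraries. Dividing by the smallest value above 0 gave whole reads (tolerance 0.01) for 100% of values in each library. The deposited columns of fold changes and p-values, the authors' own comparisons, were not used.

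The main test was limma (version 3.58.1, R 4.3.3) on log2(value + 1), with genes kept by filterByExpr (edgeR 4.0.16, minimum count 10) and Benjamini-Hochberg adjustment over all genes tested. Each pairwise comparison used its 6 libraries, and both defect groups against healthy all 9. Alternatives were edgeR's quasi-likelihood test and DESeq2 (1.42.0) on recovered reads, pseudocounts of 0.5 and 4, TMM scaling, other filters, a fit over all 9 libraries, the replicate number as a block, and leaving out each library. The ratio of summed reads, and the alternatives for HIF1A, PPP1R3C and TFRC, were added after seeing the data. Only the limma fit of untreated against healthy samples was also run on simulated data.

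Libraries with the same replicate number deviated together in CLCS and healthy (correlations 0.28, 0.14 and 0.17) and in CLCS and untreated (0.26, 0.36 and 0.30) samples, over 0.1 in every pair, and were taken as paired. For untreated and healthy samples the correlations were 0.28, 0.12 and -0.06, so these were not. If both pairings of CLCS samples held, untreated and healthy samples would be paired as well. The choices therefore conflict, the pairing is not settled, and fits with the block are alternatives only. Libraries of unlike replicate number were not compared, so the correlations do not show that libraries taken as paired share an animal. Neighbouring genes, overlapping or within 1000 bases, were taken from the RefSeq table of a newer rabbit assembly, in which all 8 symbols matched, and no coordinates are given because the builds differ. The text names all 8 genes, every called gene of the pathway lists, up to 6 of the most highly read oxygen sensing and HIF target genes, neighbours in the tables, and the 5 genes most correlated with CA9 and with BNIP3. The values of 1 gene that this rule names are not reported here. COL2A1, ACAN and the named marker genes describe the tissue. The genes and lists were chosen with earlier results of these data known.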

Additional observations from a re-analysis of the deposited data

How the results depend on the processing

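CA9, STC2 and ADM were lower than in healthy samples under every setting tried, but their calls changed with the setting. In untreated against healthy samples the genes called numbered 89, and 275 with DESeq2, 20 without a filter on low counts, 171 in the fit over 9 libraries and 2 to 7 with 1 library left out. Of the 8 genes 3 were called, 1 (STC2) with a pseudocount of 0.5, 0 without the filter and 0 with any library left out. ADM passed in 2 of 15 alternatives, and edgeR gave it an adjusted p of 0.0570 (range over alternatives 0.00943 to 0.159). In CLCS against healthy samples the genes called numbered 104, and 243 with DESeq2, 13 without a filter and 0 to 81 with 1 library left out (0 without CLCS replicate 1). Of the 8 genes 1 was called, 2 with DESeq2, 0 with a pseudocount of 0.5, 0 without the filter, 2 with the replicate block and 0 to 1 with 1 library left out. STC2 had an adjusted p of 0.00512 to 0.260 over these alternatives. For both defect groups 251 genes were called, 425 with DESeq2 and 96 to 235 with 1 library left out, and 0 to 3 of the 8 genes with 1 library left out. The causes of these shifts were not tested, except that the fits with 1 library left out have fewer samples and those without a filter more genes. The replicate block lost the call of ADM in untreated against healthy samples (limma, adjusted p = 0.0597), with 2 of the 8 genes and 94 genes in all called. It also lost that of TFRC (adjusted p = 0.0521) and gave HIF1A one (adjusted p = 0.0334). In this comparison the replicate numbers were not taken as paired. The block changed no other call of the 8 genes beyond that of STC2 with CLCS.

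Reversed directions arose in uncalled genes with 1 library left out. The log2 fold change then ran from -0.24 to 0.17 for CA12, -0.20 to 0.37 for BNIP3 and -0.37 to 0.15 for KDM3A in untreated against healthy samples. It ran from -0.016 to 0.98 for ANKRD37 and -0.14 to 0.18 for BNIP3 in CLCS against healthy samples, with -0.0060 for BNIP3 as a ratio of summed reads. In CLCS against untreated samples it ran from -0.33 to 0.18 for KDM3A, -0.39 to 0.18 for ANKRD37, -0.35 to 0.22 for BNIP3, -0.14 to 0.019 for ERO1A and -0.36 to 0.77 for HIF1A. For both defect groups it ran from -0.10 to 0.22 for BNIP3. The 0 to 15 reads of CA9, ADM and STC2 in single untreated libraries limit the precision of their fold changes.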
